A study of Mus musculus with 8 samples.

Results

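The matrix metalloproteinases (MMPs), the ADAMTS proteases and their tissue inhibitors (TIMPs) were examined in lung myofibroblasts of mice at postnatal day 7. Members were taken by name: rows whose mouse Ensembl ID maps to a symbol of Mmp with a number, Adamts with a number (the ADAMTS-like genes were left out) or Timp1 to Timp4. The rule found 46 genes among 43432 Ensembl IDs: 23 MMPs, 19 ADAMTS genes and 4 TIMPs. RNA-seq read counts were given for 8 libraries, all labelled as lung myofibroblasts of C57BL/6 background. Of these, 4 were wild type (controls) and 4 came from mice labelled Fra-2 transgenic, described as expressing Fra-2 constitutively. Fra-2, encoded by Fosl2, is a subunit of the AP-1 transcription factor. The promoter that drives the transgene, whether animals were pooled, and whether each library is a separate animal do not appear in the sources used here. The p-values therefore measure only the spread between these libraries.

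MMPs are zinc proteases that cleave collagens, elastin, basement membrane and other matrix proteins. ADAMTS proteases, which carry thrombospondin repeats, trim procollagens and cleave proteoglycans such as versican. TIMPs bind the active site of these enzymes, and Timp3 is the member that also inhibits several ADAMTS and ADAM proteases. Myofibroblasts lay down and remodel the elastin and collagen of the septa that divide the immature air sacs after birth, and several MMP genes are textbook targets of AP-1.

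Total counts per library ran from 29926239 to 41335957, and the members together took 0.725% to 0.909% of them. The 6 myofibroblast markers were all measured, and none passed the test between groups. Acta2, the smooth muscle actin of myofibroblasts, had means of 3283 and 3408 counts per 1000000 (CPM) in control and Fra-2 libraries. All CPM values here are scaled by edgeR's TMM factors. Fosl2, the gene the transgenic label names, was at 105, 117, 141 and 118 CPM in controls 1 to 4 and at 166, 134, 126 and 104 CPM in Fra-2 libraries 1 to 4. The groups overlapped (120 ± 14.9 against 132 ± 25.6 CPM, SD, n = 4 each; exact two-sided permutation p = 0.457, where 0.0286 is the smallest possible). The Fosl2 count does not separate the libraries by label. No source used here says whether reads of the transgene are counted under Fosl2, so this count is no check of the labels, and directions below are between libraries labelled Fra-2 transgenic and libraries labelled wild type. Xist and 4 Y-linked genes split each group into 2 female and 2 male libraries: controls 2 and 3 and Fra-2 libraries 1 and 3 were female. Markers of other cells were present too. The highest sums were those of adventitial fibroblasts, given below, and of pericytes (5 genes, none called), at 273 to 410.0 CPM in controls and 305 to 364 CPM in Fra-2 libraries. Levels differed widely within both lists, so a sum is no measure of the share of cells. Control means ran from 0.907 CPM (Ly6a) to 646 CPM (Col14a1) for adventitial fibroblasts. For pericytes they ran from 2.05 CPM (Higd1b) to 143 CPM (Abcc9). Summed endothelial markers (7 genes, none called) were 46.5 to 66.8 CPM in controls and 66.0 to 79.8 CPM in Fra-2 libraries. Summed alveolar epithelial markers (9 genes, none called) were 45.8 to 124 against 101 to 202 CPM, and mesothelial markers (4 genes, 3 tested, none called) 1.79 to 4.84 against 4.45 to 10.7 CPM. Macrophage markers (8 genes, 7 tested, none called) summed to 73.4 to 101 against 82.7 to 108 CPM. Airway epithelial markers (5 genes, none called) were at 56.8 to 81.0 against 47.9 to 67.9 CPM. Lymphocyte markers (8 genes, 3 tested, none called) were at 4.06 to 8.86 against 4.28 to 8.27 CPM. Erythroid markers (5 genes, none called) were at 17.2 to 141 against 18.8 to 76.7 CPM. Of 6 adventitial fibroblast markers, Dcn (140 ± 17.7 to 212 ± 30.2 CPM, SD, n = 4 each) and Serpinf1 (78.7 ± 20.4 to 137 ± 20.2 CPM) rose, with edgeR adjusted p of 0.0323 and 0.0497, and the list's sum was 1098 to 1419 against 1346 to 1603.5 CPM. Dcn kept its call in 2 of the 8 fits that leave out 1 library (without control 4 or Fra-2 library 2), and Serpinf1 also in 2 (without control 1 or control 4). None of these lists held a marker without counts. The part of these cells in the results below was not tested, and in bulk RNA fewer cells of a type and less RNA per cell cannot be told apart.

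The families were expressed very unevenly. Of the 46 members, 6 had no count in any library, 13 had counts but a mean under 1 CPM, 6 lay between 1 and 10 CPM, 7 between 10 and 100 CPM and 14 at 100 CPM or more. ADAMTS genes gave 10 of the 14 at 100 CPM or more, MMPs 2 and TIMPs 2. To compare genes of different length, CPM was divided by the exon length in kilobases (CPM per kb). On that scale Timp2, an inhibitor that also helps activate proMmp2 on the cell surface, was highest, with means of 411 ± 32.3 in controls and 432 ± 31.1 CPM per kb in Fra-2 libraries (SD, n = 4 each). Mmp2, gelatinase A, followed at 214 ± 33.3 and 251 ± 30.8 CPM per kb. Adamts1, a protease of versican and aggrecan, stood at 165 ± 13.9 and 226 ± 36.3 CPM per kb. Mmp14, the membrane-type protease that activates proMmp2, was at 136 ± 7.45 and 137 ± 15.5 CPM per kb. Timp3, the matrix-bound inhibitor, was at 97.0 ± 24.3 and 120 ± 20.9 CPM per kb, and Adamts2, a procollagen N-proteinase, at 94.5 ± 5.95 and 113 ± 5.30 CPM per kb. In this order Timp2 stood clear of Mmp2 in all 8 libraries, while the ranges of each next pair down to Adamts2 overlapped. Adamts2 stood clear of the next gene, Adamts10, in all 8 libraries (87.4 to 118 against 22.4 to 81.2 CPM per kb).

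**Figure D1:**
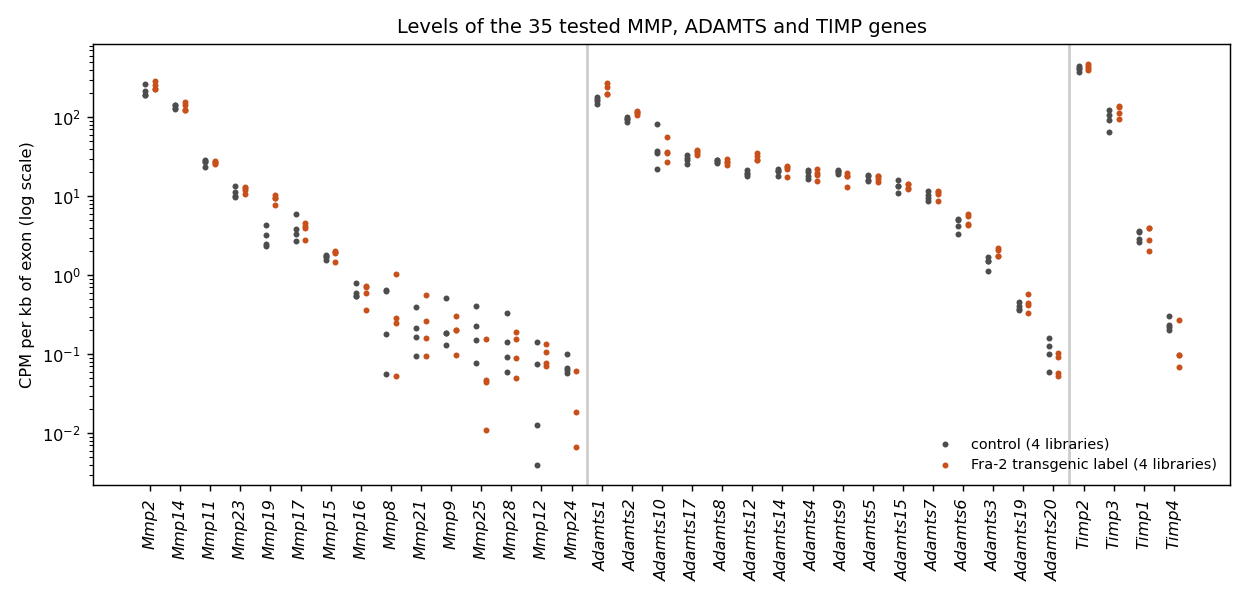
Expression level of the 35 tested members in CPM per kb of exon (log axis), 1 point per library, controls grey and Fra-2 libraries orange, ordered by mean within each family; a library with no count (Mmp24 in Fra-2 library 4) has no point. Timp2, Mmp2, Adamts1, Mmp14, Timp3 and Adamts2 lie above the rest, with means over all libraries of 422, 232, 196, 136, 109 and 104 CPM per kb.

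A pair of genes carried most of the MMP and TIMP signal. Mmp14 and Mmp2 together gave 90.4% of the summed CPM of the MMPs (87.5% of the CPM per kb), and Timp2 and Timp3 gave 99.8% of the TIMP total (99.4% per kb). The ADAMTS family was spread more widely, with 48.4% of its CPM from Adamts1 and Adamts2 in controls and 53.4% in Fra-2 libraries. For the 21 members at 10 CPM or more, the coefficient of variation between controls ran from 4.01% for Adamts8 to 58.3% for Adamts10, with a median of 11.1%. Between Fra-2 libraries it ran from 4.02% for Mmp11 to 31.5% for Adamts10, with a median of 11.7%.

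The silent members fell mainly in a single stretch of the genome. On mouse chromosome 9 (GRCm38, bases 7272514 to 7699585, 427 kb) 10 MMP genes lie side by side: Mmp13, Mmp12, Mmp1b, Mmp3, Mmp1a, Mmp10, Mmp8, Mmp27, Mmp20 and Mmp7. They include collagenases (Mmp1a, Mmp1b, Mmp8, Mmp13), stromelysins (Mmp3, Mmp10), the macrophage elastase Mmp12, the enamel protease Mmp20 and matrilysin, Mmp7. GENCODE lists Mmp1a as a polymorphic pseudogene. Of these 10, 5 had no count in any library (Mmp1a, Mmp1b, Mmp10, Mmp20 and Mmp27), and the highest level of any was 2.51 CPM (87 counts, Mmp8, in Fra-2 library 1). A count of 0 allows a level of up to 0.0688 to 0.0955 CPM, depending on the library (3 counts, counting error only). Only Mmp8 and Mmp12 had enough counts to be tested, whereas all 13 MMP genes elsewhere in the genome were tested. The remaining gene without counts was Adamts16.

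**Figure D2:**
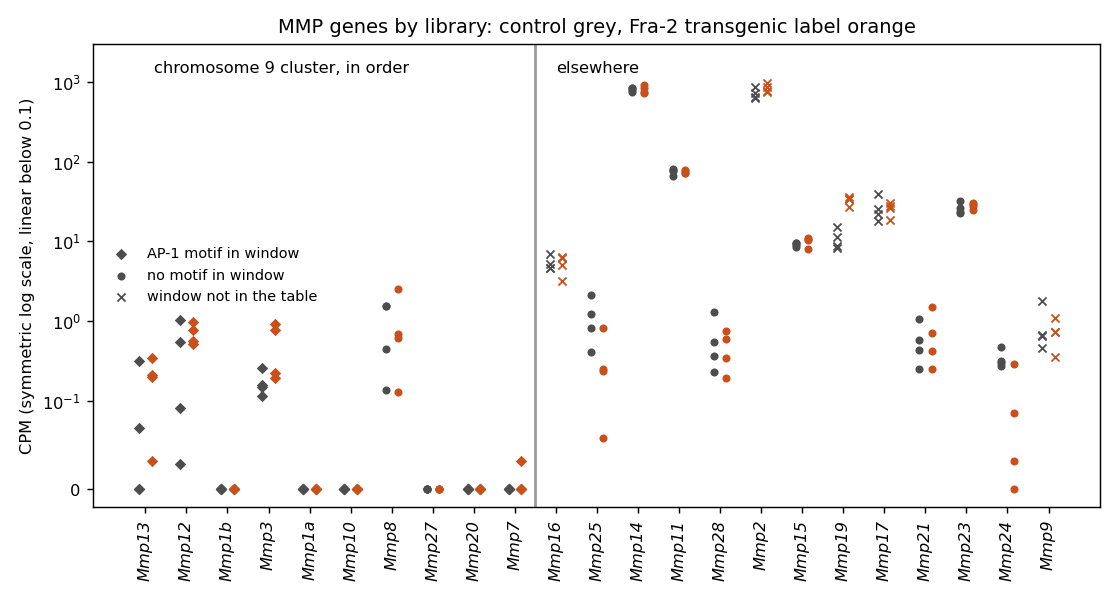
CPM of all 23 MMP genes in each library (symmetric log axis, linear below 0.1 CPM), controls grey and Fra-2 libraries orange. Left of the vertical line are the 10 genes of the chromosome 9 group in order, and right of it the other 13. Diamonds mark genes with TGANTCA in a promoter window, circles genes without it and crosses genes with no entry. No gene of the chromosome 9 group exceeds 2.51 CPM, while Mmp14 and Mmp2 lie at 636 CPM or more in every library.

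Since the transgene encodes an AP-1 subunit, the promoter windows of the members were searched for the AP-1 motif TGANTCA on both strands. Each window runs from 250 bases before to 50 bases after the start given by RefSeq (GRCm38.p6), and 32 of the 46 members have an entry. The motif was found in 8 members, all of them in the chromosome 9 group, where 8 of 10 genes hold it. It was found in 0 of the 22 other members with an entry. For Adamts20 and Mmp11, both on the minus strand, the window lies inside the GENCODE gene, whose own start was not searched. The windows end at bases 94404600 and 75932752, and the genes at 94465418 and 75936496. The 14 members without an entry, among them Mmp19, Mmp2 and Mmp9, were not searched. Counted by gene, 8.97% of all RefSeq genes hold it in a window. Counted by window, 8 of the 12 windows of the chromosome 9 group (66.7%) hold it. Over all RefSeq windows 7.81% hold it, and among windows in the GC range of that group (37.7% to 52%) the share is 10.6%. The windows of the group have a median GC of 41.7% and those of the other members 64.7%. Some members of low level, such as Mmp27, Mmp8 and Mmp24, have an entry without the motif. The stretches below, 47 bases each on chromosome 9, are shown because every member found to hold the motif had few or no counts in both groups. They are written 5′ to 3′ on the gene's strand, and capitals mark the motif.
Mmp13, chr9:7272459-7272505, plus strand: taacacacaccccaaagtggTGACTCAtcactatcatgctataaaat
Mmp12, chr9:7347310-7347356, plus strand: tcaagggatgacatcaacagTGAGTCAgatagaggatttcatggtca
Mmp1b, chr9:7388093-7388139, minus strand: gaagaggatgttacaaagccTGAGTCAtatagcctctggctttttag
Mmp3, chr9:7445756-7445802, plus strand: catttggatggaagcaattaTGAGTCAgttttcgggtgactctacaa
Mmp1a, chr9:7464048-7464094, plus strand: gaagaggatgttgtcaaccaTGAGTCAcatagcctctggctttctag
Mmp10, chr9:7502259-7502305, plus strand: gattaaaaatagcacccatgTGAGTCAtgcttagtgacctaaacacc
Mmp20, chr9:7628116-7628162, plus strand: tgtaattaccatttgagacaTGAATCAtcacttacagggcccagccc
Mmp7, chr9:7692007-7692053, plus strand: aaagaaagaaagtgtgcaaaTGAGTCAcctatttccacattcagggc

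The motif starts between 35 bases (Mmp13) and 95 bases (Mmp20) before the RefSeq start. It reads TGAGTCA in 6 of the 8 printed strands, TGACTCA in Mmp13, which is the same site read from the other strand, and TGAATCA in Mmp20. Mmp12 and Mmp7 have 2 windows each in the table, and 1 of them holds the motif. The presence of these letters is a description of the windows and shows no binding.

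For each gene the test was edgeR's quasi-likelihood F-test with Benjamini-Hochberg adjustment over all 15422 genes with enough counts, and a gene was called at an adjusted p under 0.05. Among the members, 35 could be tested (15 MMPs, 16 ADAMTS genes and 4 TIMPs). Of the 35, 2 were called higher in Fra-2 libraries, Mmp19 and Adamts12, none was called lower, and 33 were not called. Among all genes tested, 0.72% were called higher and 0.298% lower. DESeq2 called 3 members higher and 0 lower (all genes 1.85% and 0.647%), and limma-voom 2 and 0 (0.707% and 0.259%). At an unadjusted edgeR p under 0.05, 6 members were higher (17.1%, against 5.17% of all genes) and 1 was lower, Mmp25 (3.53% of all genes were lower), a gene tested only through the controls. In 5 of the 35 (14.3%) the lowest Fra-2 library was above the highest control, against 3.35% of all genes tested, and in none was the order the other way (2.42% of all genes). Scaled to total counts, 4 members were apart in the first direction (3.35% of all genes), Adamts2 no longer among them, and 1 in the other, Adamts9 (2.38%). The median log2 fold change of the tested members was 0.06, against -0.01 for all genes, and 21 of 35 (60%) were above 0, against 47.8% of all genes. With 2 libraries of each sex per group, no difference between sexes in the group effect was detected: by edgeR's interaction test 0 genes passed at an adjusted p under 0.05 (294 at an unadjusted p under 0.05), and the lowest unadjusted p of a member was 0.0917.

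**Figure D3:**
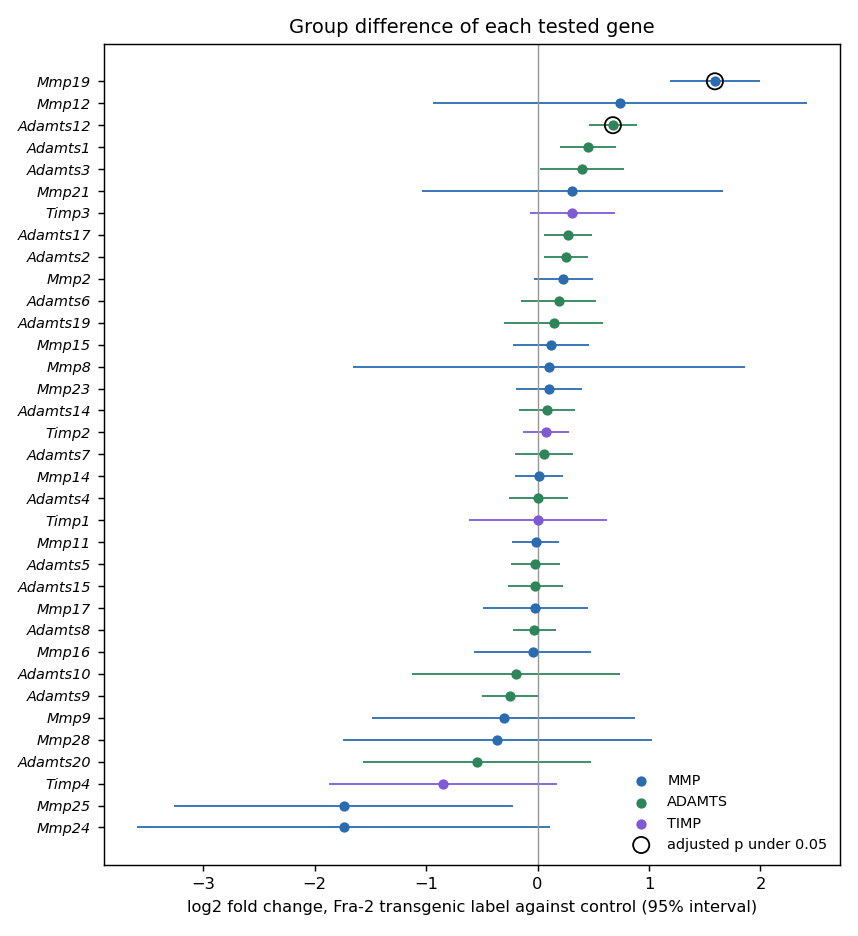
Log2 fold change (Fra-2 against control) of the 35 tested members with 95% intervals derived from edgeR's F statistics, ordered by size and coloured by family. The circled genes, Mmp19 at 1.59 and Adamts12 at 0.68, are those called at an adjusted p under 0.05; the wide intervals at the lower end belong to genes of low level such as Mmp25.

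Mmp19 rose about 3-fold in the Fra-2 libraries. This secreted MMP, which cleaves basement membrane proteins, lies on chromosome 10 (GRCm38, bases 128790910 to 128800824). It was at 8.21, 8.80, 11.4 and 15.1 CPM in controls 1 to 4 and at 33.8, 27.0, 36.3 and 33.8 CPM in Fra-2 libraries 1 to 4. Every Fra-2 library was above every control, and the gap between the groups (15.1 to 27.0 CPM) was wider than the range within either. The means were 10.9 ± 3.13 and 32.7 ± 4.02 CPM (SD, n = 4 each), a rise of 3.01-fold with a 95% interval of 2.28 to 3.98 (1.59 ± 0.188 SE on the log2 scale, adjusted p = 0.000615 in edgeR). The values rest on 309 to 502 counts per control library and 848 to 1277 per Fra-2 library. In the 2 against 2 female libraries alone the log2 fold change was 1.80 (edgeR adjusted p = 0.000745), and in the males alone 1.39, where edgeR did not call it (adjusted p = 0.801). The opposite-strand gene Tmem198b shares 789 bases with the exons of Mmp19, which is 22.3% of their length. The counting is not stated to use strand, so reads of the shared stretch cannot be told apart. Tmem198b was at 5.41 to 8.72 CPM in controls and 8.25 to 11.9 CPM in Fra-2 libraries (log2 fold change 0.39, edgeR adjusted p = 0.632), and its part in the Mmp19 values was not tested. A further antisense gene, Gm47093, shares 212 bases with the exons and has no row in the table used here. Per length Mmp19 was a minor member even after its rise, at 3.08 ± 0.887 and 9.27 ± 1.14 CPM per kb.

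The MMPs with the highest levels gave smaller differences that were not called. Mmp2 was at 641, 636, 729.5 and 876 CPM in controls and at 772, 982, 871 and 759 CPM in Fra-2 libraries, with overlapping groups (log2 fold change 0.23, 95% interval of the fold 0.977 to 1.41, edgeR adjusted p = 0.676). Mmp14 was at 754, 842, 789 and 847 CPM in controls and at 736, 930.3, 846 and 745 CPM in Fra-2 libraries. Its log2 fold change was 0.01, with a 95% interval of the fold of 0.867 to 1.17 (edgeR adjusted p = 0.991). Mmp11, a stromelysin activated by furin inside the cell, was at 76.3, 78.3, 65.6 and 80.5 against 71.6, 72.6, 75.4 and 78.2 CPM, with a 95% interval of the fold of 0.856 to 1.15 (edgeR adjusted p = 0.989). For Mmp14 and Mmp11 these intervals leave out a change of 1.5-fold in either direction, and for Mmp2 they leave out a fall of that size and a rise above 1.41-fold.

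Of the 6 membrane-type MMPs, all were tested and none was called. Besides Mmp14, the transmembrane Mmp15 (8.46 to 9.66 CPM in controls, 7.98 to 10.9 in Fra-2 libraries) and Mmp16 (4.69 to 6.87 and 3.18 to 6.38 CPM) and the lipid-anchored Mmp17 (17.9 to 39.1 and 18.7 to 29.96 CPM) overlapped between groups. Mmp24 lay under 0.5 CPM in every library, with 13, 11, 15 and 9 counts in controls and 3, 9, 1 and 0 counts in Fra-2 libraries. Its log2 fold change was -1.74 (edgeR adjusted p = 0.626). Only 3 controls and 1 Fra-2 library were above the level of the filter on low counts, so this difference supports nothing on its own. The opposite-strand gene BC029722 shares 13.6% of the exon length of Mmp24, and its part in the Mmp24 values was not tested. Mmp25, a lipid-anchored MMP known from neutrophils, had 53, 75, 13 and 27 counts in controls and 2, 26, 8 and 9 counts in Fra-2 libraries. These are 1.22, 2.14, 0.410 and 0.812 against 0.0576, 0.827, 0.252 and 0.238 CPM, so the groups overlap through Fra-2 library 2. Its log2 fold change was -1.74 (edgeR unadjusted p = 0.0278, adjusted p = 0.467; 95% interval of the fold 0.104 to 0.859), and leaving out 1 library moved it between -2.63 and -1.24. Mmp25 passed the filter on low counts through the controls, with 4 controls and 1 Fra-2 library above its level, so its difference supports nothing on its own. Summed neutrophil markers (7 genes, 5 tested, none called, none without counts) were 4.29 to 14.9 CPM in controls and 5.03 to 10.5 CPM in Fra-2 libraries, and their part in the Mmp25 values was not tested.

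Of the MMPs not yet described, Mmp23 alone was above 3 CPM in any library. Mmp23, a small membrane protease, was at 23.0 to 31.7 CPM in controls and 24.7 to 30.6 CPM in Fra-2 libraries. Mmp9, gelatinase B, was at 0.459 to 1.80 and 0.350 to 1.09 CPM. Mmp8, Mmp12, Mmp21 and Mmp28 each stayed under 3 CPM in every library. A level of about 0.292 CPM in at least 4 libraries was needed for a gene to be tested. Of the 35 tested members, 29 were above it in all 8 libraries, and the exceptions were Mmp8, Mmp12, Mmp21, Mmp24, Mmp25 and Mmp28. Of the 8 MMPs not tested, Mmp3, stromelysin 1, came closest, with 5, 9, 5 and 5 counts in controls and 32, 6, 7 and 29 counts in Fra-2 libraries. The 2 higher Fra-2 libraries were number 1, which is female, and number 4, which is male. Mmp13, the main collagenase of rodents, had 3, 0, 10 and 0 counts in controls and 7, 1, 11 and 8 counts in Fra-2 libraries. Mmp7 had a single count in the whole data set.

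Adamts12 rose 1.6-fold in the Fra-2 libraries. It is a large protease known to cleave cartilage oligomeric matrix protein and lies on chromosome 15 (GRCm38, bases 11064790 to 11349231). Levels were 196, 216, 236 and 207 CPM in controls and 318, 314, 348 and 386 CPM in Fra-2 libraries. The groups did not overlap: the highest control was at 236 CPM and the lowest Fra-2 library at 314 CPM. The means were 214 ± 16.9 and 342 ± 33.2 CPM (SD, n = 4 each), a rise of 1.60-fold with a 95% interval of 1.37 to 1.86 (0.68 ± 0.102 SE on the log2 scale, adjusted p = 0.0046 in edgeR). The log2 fold change was 0.57 in females alone (edgeR adjusted p = 0.0329) and 0.80 in males alone, where edgeR did not call it (adjusted p = 0.994). The summed adventitial fibroblast, endothelial, alveolar epithelial, mesothelial and macrophage markers given above also ran higher in Fra-2 libraries, with overlapping ranges. Those of airway epithelial cells ran lower, again with overlap. For pericytes, neutrophils, lymphocytes and erythroid cells the Fra-2 range lay within that of the controls. The part of any of these cells in the rise of Mmp19 and Adamts12 was not tested. The other protease known for the same substrate, Adamts7, was at 54.4 to 74.0 CPM in controls and 54.9 to 72.1 CPM in Fra-2 libraries and was not called. The 250 bases before the RefSeq start of Adamts12 are shown because it is the called member with an entry, and those of Adamts1 because it is the ADAMTS gene with the highest level per kb. Neither holds TGANTCA.
Adamts12, chr15:11064523-11064772, plus strand: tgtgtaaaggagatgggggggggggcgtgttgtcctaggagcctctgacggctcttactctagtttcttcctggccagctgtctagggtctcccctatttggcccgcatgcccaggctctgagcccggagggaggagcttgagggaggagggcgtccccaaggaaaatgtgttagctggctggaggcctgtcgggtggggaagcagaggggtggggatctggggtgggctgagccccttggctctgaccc
Adamts1, chr16:85803114-85803363, minus strand: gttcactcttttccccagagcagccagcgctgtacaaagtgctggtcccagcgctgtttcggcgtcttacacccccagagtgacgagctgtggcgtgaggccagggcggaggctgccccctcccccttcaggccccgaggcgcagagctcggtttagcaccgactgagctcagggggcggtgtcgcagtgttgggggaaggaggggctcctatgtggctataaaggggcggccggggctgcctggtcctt

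Adamts1 was higher in every Fra-2 library but missed the threshold. It was at 901, 787, 962 and 854 CPM in controls and at 1296, 1036, 1424 and 1042 CPM in Fra-2 libraries. The lower Fra-2 libraries, 2 and 4, were both male, and they too lay above the highest control, at 962 CPM. The means were 876 ± 73.7 and 1199 ± 193 CPM (SD, n = 4 each), 1.37-fold with a 95% interval of 1.15 to 1.63 (0.45 ± 0.119 SE on the log2 scale, adjusted p = 0.111 in edgeR). It passed in 3 of 17 other settings fixed with the design, among them DESeq2 (adjusted p = 0.0206) and edgeR without the filter on low counts (adjusted p = 0.046), and over the 17 the adjusted p ran from 0.0206 to 0.380. It also passed in edgeR on the female libraries alone (log2 fold change 0.64, adjusted p = 0.037), and in males alone it was at 0.24 and was not called. Its neighbour Adamts5, 53059 bases away on chromosome 16, gave 169.6 to 203 CPM in controls and 163 to 195 CPM in Fra-2 libraries.

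The remaining proteases of hyalectans, the proteoglycan family of versican and aggrecan, overlapped between groups with TMM scaling. By edgeR none of the 7 in this group, Adamts1 included, was called, and their median log2 fold change was -0.02. Adamts4 was at 79.2 to 102 CPM in controls and 74.7 to 107 CPM in Fra-2 libraries, Adamts8 at 121 to 132 and 114 to 135 CPM, and Adamts15 at 115 to 167 and 128 to 147 CPM. Adamts9, which also acts on versican, was at 306 ± 14.2 in controls and 258 ± 42.6 CPM in Fra-2 libraries (SD, n = 4 each), with a log2 fold change of -0.25 (edgeR adjusted p = 0.602). Scaled to total counts its groups did not overlap, as the highest Fra-2 library (284 CPM) lay under the lowest control (299 CPM). Adamts20 stayed under 2 CPM in every library.

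The procollagen N-proteinases, which remove the amino-terminal propeptide of fibrillar collagens, gave a median log2 fold change of 0.26 over 3 genes, with none called. Adamts2 was at 951, 873, 888 and 816 CPM in controls and at 1049, 1073, 986 and 1103 CPM in Fra-2 libraries. The groups did not overlap with TMM scaling, but scaled to total counts control 1 (1004 CPM) lay above Fra-2 library 3 (959.5 CPM) (means 882 ± 55.6 and 1053 ± 49.4 CPM, SD, n = 4 each; log2 fold change 0.26, edgeR adjusted p = 0.334). Adamts3, which also processes the lymphatic growth factor Vegfc, was at 6.05, 8.32, 8.33 and 9.26 CPM in controls and at 9.39, 9.58, 12.0 and 11.2 CPM in Fra-2 libraries. Its groups did not overlap, with control 4 just under Fra-2 library 1 (log2 fold change 0.40, edgeR adjusted p = 0.521). Adamts14, the other member, overlapped at 93.5 to 115 and 90.01 to 127 CPM.

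Among the other ADAMTS genes, Adamts17, a protease linked to fibrillin microfibrils, was at 201, 221, 236 and 261 CPM in controls and 286, 296, 257 and 272 CPM in Fra-2 libraries. Control 4 overlapped Fra-2 library 3 (log2 fold change 0.27, edgeR adjusted p = 0.391). Adamts10, its fibrillin-binding relative, was at 669.9, 289.7, 309 and 185 CPM in controls and 296, 460.1, 290.5 and 225 CPM in Fra-2 libraries. Control 1 stood more than 2-fold above the other controls. The log2 fold change was -0.19 (edgeR adjusted p = 0.956) and turned to 0.29 without control 1. Adamts6 (26.3 to 40.6 and 33.3 to 46.4 CPM) and Adamts19 (5.02 to 6.44 and 4.71 to 8.04 CPM) overlapped. Adamts13, which cleaves von Willebrand factor, and Adamts18 stayed under 0.3 CPM and were not tested.

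**Figure D4:**
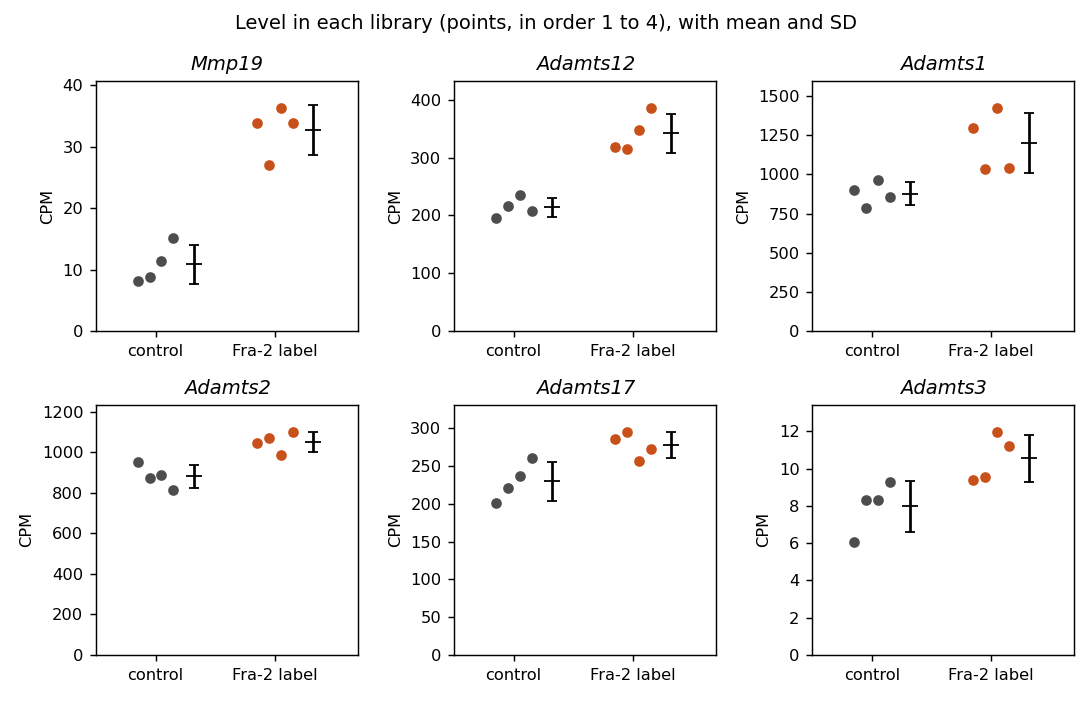
CPM of Mmp19, Adamts12, Adamts1, Adamts2, Adamts17 and Adamts3, 1 panel per gene with its own axis from 0; points are libraries 1 to 4 of each group, and the cross and bar beside them the mean and SD. The Fra-2 libraries of Mmp19 and Adamts12 all lie above the controls (27.0 CPM or more against 15.1 or less, and 314 or more against 236 or less), and Adamts17 overlaps between groups.

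None of the 4 TIMPs was called. Timp2 was at 1652, 1566, 1446 and 1741 CPM in controls and at 1834, 1640.0, 1547 and 1717 CPM in Fra-2 libraries (log2 fold change 0.07, 95% interval of the fold 0.912 to 1.21, edgeR adjusted p = 0.930). Timp3 was at 532, 757, 874 and 997 CPM in controls and at 923, 765, 1107 and 1125 CPM in Fra-2 libraries, with control 1 lowest (log2 fold change 0.31, 95% interval 0.953 to 1.62, edgeR adjusted p = 0.702). Both intervals leave out a fall of 1.5-fold. Timp1, the X-linked inhibitor that is often induced in fibrosis, was low in both groups, at 3.23, 3.13, 2.30 and 2.59 CPM in controls and 3.54, 3.50, 1.79 and 2.46 CPM in Fra-2 libraries. Its log2 fold change was 0.00, with a 95% interval of the fold of 0.654 to 1.54 (edgeR adjusted p = 0.998). Timp4 was at 1.79, 1.40, 1.20 and 1.29 CPM in controls and 1.58, 0.573, 0.409 and 0.583 CPM in Fra-2 libraries. In it 3 Fra-2 libraries lay under every control and Fra-2 library 1 did not (log2 fold change -0.85, 95% interval of the fold 0.274 to 1.13, edgeR adjusted p = 0.695). Timp1, Timp3 and Timp4 each lie inside a synapsin gene on the opposite strand (Syn1, Syn3 and Syn2). Only for Timp3 is the shared exon length large, at 1733 bases or 21.3% of its exons. Syn3 was at 2.34 to 4.99 CPM in controls and 3.78 to 4.85 CPM in Fra-2 libraries, far under Timp3, and its part in the Timp3 values was not tested.

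The summed level of each family was also compared. The ADAMTS sum was 3633 ± 294 CPM in controls and 4220.2 ± 126 CPM in Fra-2 libraries (SD, n = 4 each), with ranges of 3391 to 4030.0 and 4072 to 4358 CPM that do not overlap. Scaled to total counts in place of TMM they do overlap, at 3346 to 4252 and 3947 to 4378 CPM, since control 1 then lies above Fra-2 library 4. The MMP sum was 1687 ± 153 and 1841 ± 187 CPM, and the TIMP sum 2396 ± 240 and 2668.5 ± 189 CPM, both with overlapping ranges. These sums are descriptions without a test, since the family totals rest on the few abundant genes named above.

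**Figure D5:**
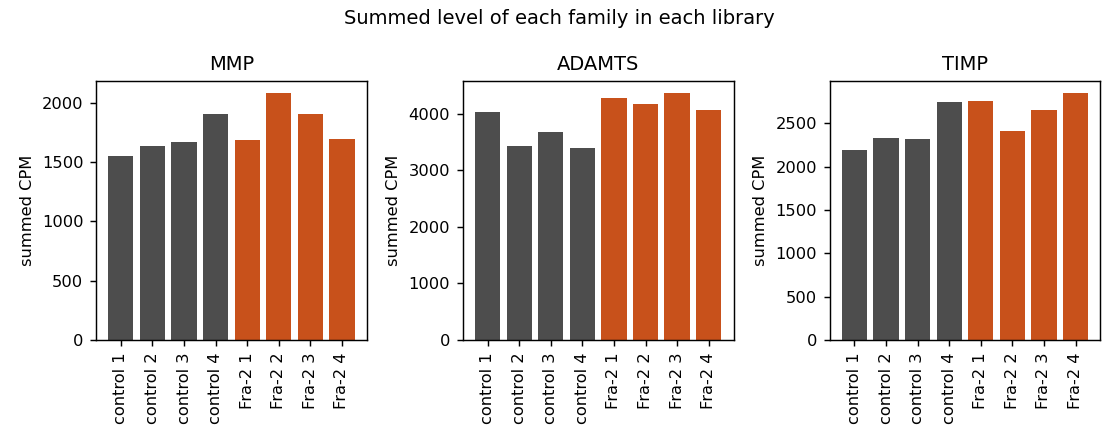
Summed CPM of the MMP, ADAMTS and TIMP genes, 1 bar per library, controls grey and Fra-2 libraries orange. The ADAMTS sums of the Fra-2 libraries (4072 to 4358 CPM) lie above those of the controls (3391 to 4030.0 CPM) with the TMM scaling shown, but not when scaled to total counts (3947 to 4378 against 3346 to 4252 CPM), and the other families overlap.

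Genes that activate, clear or serve as substrates of these proteases were counted in 8 lists, 65 genes in all, of which 55 were tested. Of the 55, 2 rose (3.64%, against 0.72% of all genes), none fell and 53 were not called. DESeq2 called 3 of 54 higher and 0 lower (1.85% and 0.647% of all genes), and limma-voom 2 and 0 of 55 (0.707% and 0.259%). At an unadjusted edgeR p under 0.05 there were 13 higher and 1 lower (5.17% and 3.53% of all genes). The lists were chosen with earlier results of these data known, so these counts are a description and no test of the lists. Htra3, a secreted serine protease, rose from 18.6 ± 0.764 to 29.96 ± 1.76 CPM (SD, n = 4 each; log2 fold change 0.69, edgeR adjusted p = 0.00998), and it was called in all 17 other settings fixed with the design. Pcolce2, an enhancer of procollagen C-proteinase, rose from 70.7 ± 7.33 to 98.2 ± 6.31 CPM (log2 fold change 0.47, edgeR adjusted p = 0.0459), and it kept its call in 8 of the 17, losing it in 6 of the 8 fits that leave out 1 library (all but those without control 4 or Fra-2 library 2). Bmp1, the C-proteinase itself, was at 146 and 140 CPM on average (edgeR did not call it), and it was the more abundant of 2 tested astacins. Among 8 tested genes of plasminogen activation edgeR called none. Plat, tissue plasminogen activator, also named after its values were seen, was at 225 ± 23.3 and 304 ± 37.3 CPM (SD, n = 4 each) and was called by DESeq2 (adjusted p = 0.0197) but not by edgeR (adjusted p = 0.109). The most abundant gene of the list, the protease inhibitor Serpine2, averaged 1145 and 1084 CPM. None of 4 proprotein convertases, which activate membrane-type MMPs and ADAMTS proteases, was called, and Pcsk5 averaged 229 and 228 CPM. None of 8 ADAM proteases was called, with Adam19 at 1297 and 1429 CPM. A list of 9 genes held regulators and clearance genes of MMPs together with the C-proteinase enhancers Pcolce and Pcolce2. Of these only Pcolce2 was called, and no MMP regulator or clearance gene was. The most abundant, thrombospondin 1 (Thbs1), averaged 2481 ± 346 and 3165 ± 677 CPM (edgeR adjusted p = 0.518). By edgeR none of 7 ADAMTS-like and papilin genes was called, and none of 7 tested genes of hyalectans and their link proteins. Aggrecan (Acan), named after its values were seen, was called by limma-voom (adjusted p = 0.0495) and not by edgeR (adjusted p = 0.173). It had 1, 14, 38 and 51 counts in controls and 165, 101, 163 and 160 in Fra-2 libraries, and edgeR called it without control 1 (adjusted p = 0.0339). Versican (Vcan), the main hyalectan here, was at 1627 ± 52.1 and 1539 ± 246 CPM, and Adamtsl4 averaged 82.7 and 86.2 CPM. Of 10 cathepsins and serine proteases 1 was called (Htra3), and the most abundant, Ctsd, averaged 1250.3 and 1390.5 CPM.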

How the data were processed

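RNA was measured in 8 libraries of mouse lung myofibroblasts at postnatal day 7. Per the labels' protocols, mRNA was selected, its cDNA amplified (Ovation RNA-Seq System V2) and libraries made with Nextera XT. The authors deposited raw read counts per Ensembl gene ID. No source used here names the aligner, counter or annotation; the submitters' processing notes name the build GRCh38, while the IDs are mouse IDs. Symbols came from GENCODE M21 (42548 of 43432 IDs matched; the rest hold 0.0842% of counts), and exon length is the union of its exons (GRCm38). Promoter sequences came from RefSeq (GRCm38.p6).

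Genes were tested with edgeR 4.0.16 in R 4.3.3: filterByExpr (minimum count 10, total 15), TMM scaling, robust quasi-likelihood F-test, control against Fra-2, all 8 libraries, no covariate, Benjamini-Hochberg over 15422 genes at 0.05 (common biological coefficient of variation 0.257). Alternatives used DESeq2 1.42.0, limma 3.58.1, other scalings and filters, a sex term, a replicate block and leaving out each library; sexes alone were added after the data were seen. Counts were simulated for 15422 genes, with 50 changed per fold size, all drawn from genes at a mean of 1 CPM or more. This comparison recovered 30% of 1.5-fold, 78% of 2-fold, 96% of 4-fold and 96% of 8-fold changes, with 7 false among 157 calls (4.46%). Recovery of changes in genes under 1 CPM was not examined. The chi-square per gene between libraries of a group showed that all 8 differ by more than sampling noise.

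Values in every library are given for members past the threshold, with an unadjusted p under 0.05 or without overlap, for the TIMPs and for the 3 MMP and 3 ADAMTS genes highest per kb; the others are given as ranges. Of each related list the called genes and the most abundant one are named. The 250 bases before the start are not shown for Timp2, whose RefSeq start lies inside a GENCODE exon. Nor are they shown for Mmp19 and Mmp2, which have no promoter entry and were not searched for the motif. Members, lists and tests were chosen with earlier results of these data known.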

Additional observations from a re-analysis of the deposited data

Results flagged for a closer look

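Single libraries stood far from the other 3 of their group in 2 of the 70 groups of 4 libraries examined (35 tested members in each of the control and Fra-2 groups; gap over range above Dixon's 95% critical value, which chance alone exceeds in about 1 in 20 groups). Mmp9, gelatinase B, was at 1.80 CPM in control 4 and at 0.459 to 0.663 CPM in the other controls, a gap of 0.848 of the range. Timp4 was at 1.58 CPM in Fra-2 library 1 and at 0.409 to 0.583 CPM in the other Fra-2 libraries, a gap of 0.853 of the range.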

How the results depend on the processing

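Mmp19 and Adamts12 were called in all 17 settings fixed with the design, with log2 fold changes of 1.48 to 1.79 and 0.61 to 0.73 and adjusted p up to 0.00562 and 0.025. Adamts1 was called in 3 of the 17. The members called higher numbered 2 or 3 in each of those (2 whenever 1 library was left out) and 0 in the male libraries alone, chosen after seeing the data, against 3 in females alone; none was lower in any setting run. Genes called higher numbered 111 and lower 46. DESeq2 gave 268 and 94. Leaving out 1 library gave 50 to 153 and 22 to 52. Females alone gave 142 and 37 and males alone 3 and 0, with 4 libraries each. An adjusted p under 0.10 gave 160 higher and 73 lower. Replicate numbers did not pair the libraries (correlations of same-numbered deviations 0.00177, 0.219, 0.0797 and 0.310); a replicate block gave 137 higher and 53 lower genes and 3 members higher, adding Adamts1.

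Genes never called changed sign as follows, and the cause was not tested. Leaving out 1 library moved the log2 fold change of Adamts10 between -0.43 and 0.29, Mmp11 between -0.070 and 0.021, Mmp14 between -0.058 and 0.061, Timp1 between -0.12 and 0.17, Adamtsl4 between -0.044 and 0.11, Bmp1 between -0.13 and 0.026, Pcsk5 between -0.048 and 0.047 and Vcan between -0.13 and 0.028. In females alone Mmp11 was 0.035, Mmp14 -0.039, Timp1 -0.021, Pcsk5 0.030 and Serpine2 0.070, and in males alone Timp2 was -0.014. Timp1 was -0.0053 without the filter, -0.050 in limma-voom and -0.028 with the replicate block. Members under 1 CPM are limited by depth.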
